A study of Mus musculus with 12 samples.

Results

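Ctgf, Cyr61, Ankrd1, Amotl2, Ajuba and Yap1 are 6 of the 50508 gene models in a table of unique molecular identifier (UMI) counts, 1 UMI standing for 1 captured transcript molecule, from single enteric cells of the mouse. They are Yap1 itself and 5 genes known as its targets or partners, and they were picked by name with expression results of these same cells in view. Their own levels are therefore given as a description, without p-values, across 4 groups formed by a sorting gate and by irradiation. Of the 6 genes, 4 passed the filter on low counts, Ajuba had 8 UMIs in all and Ankrd1 had 0.

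The cells came from adult C57BL/6 mice, from the longitudinal muscle and myenteric plexus layer of the intestine, and were sorted 1 per well into 96-well plates by a red Dclk1-tdTom reporter and by the surface integrin CD49b. The homeostasis CD49b- and homeostasis CD49b+ groups came from mice given 3 mg of tamoxifen at 8 or 9 weeks of age and collected 10 days later. The irradiated CD49b- and irradiated CD49b+ groups had the same tamoxifen, 10.5 Gy of irradiation 7 days after it, and collection 3 days after irradiation. Each group had 3 plates, and each plate held cells of a pool of 2 mice that gave 1 CD49b- and 1 CD49b+ plate. All 4 groups shared the tamoxifen and the Dclk1-tdTom label, so no value here concerns cells without that label. The labels call CD49b- cells neuronal and CD49b+ cells glial.

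YAP, the protein of Yap1, and its paralogue TAZ, the protein of Wwtr1, are transcriptional coactivators that bind DNA through the TEAD factors. The Hippo kinases MST (Stk3, Stk4) and LATS (Lats1, Lats2) phosphorylate them and keep them out of the nucleus, while stiff matrix, cell spreading and actin tension favour their entry. Ctgf and Cyr61 encode secreted matricellular proteins of the CCN family, named Ccn2 and Ccn1 in newer nomenclature, which bind integrins and proteoglycans and are the target genes most often read out for this pathway. Cyr61 is also an immediate early gene, induced within minutes of serum or mechanical stimulation in many cells.

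In the annotation of GRCm38, Ctgf lies on the plus strand at chr10:24595442-24598683, Cyr61 on the minus strand at chr3:145646976-145649981 and Ankrd1 on the minus strand at chr19:36111961-36120099. Amotl2 lies at chr9:102716672-102733418 on the plus strand, Ajuba at chr14:54567472-54577558 on the minus strand and Yap1 at chr9:7931999-8004596 on the minus strand. The 250 bases upstream of the start are shown for the most abundant of these genes (Cyr61), for one at low level (Amotl2) and for the one that was not detected (Ankrd1), 5′ to 3′ on the gene's own strand, from RefSeq on GRCm38.p6. The start is RefSeq's and differs from the outer end of the GENCODE gene given above, so that the windows of Amotl2 and Ankrd1 lie within the GENCODE gene. Capitals mark CATTCC, the core of the element that TEAD factors recognise, or GGAATG, the same letters read from the other strand.
Cyr61, chr3:145649986-145650235, minus strand: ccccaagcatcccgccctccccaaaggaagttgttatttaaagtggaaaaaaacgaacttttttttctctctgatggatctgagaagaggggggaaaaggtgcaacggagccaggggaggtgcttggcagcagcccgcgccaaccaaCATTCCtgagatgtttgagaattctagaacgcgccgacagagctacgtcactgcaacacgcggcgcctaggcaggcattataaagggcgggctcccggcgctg
Amotl2, chr9:102717554-102717803, plus strand: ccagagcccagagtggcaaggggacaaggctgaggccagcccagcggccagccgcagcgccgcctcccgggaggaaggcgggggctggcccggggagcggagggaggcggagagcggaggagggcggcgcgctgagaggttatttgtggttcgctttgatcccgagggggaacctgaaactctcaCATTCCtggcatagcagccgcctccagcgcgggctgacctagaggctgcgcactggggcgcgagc
Ankrd1, chr19:36119845-36120094, minus strand: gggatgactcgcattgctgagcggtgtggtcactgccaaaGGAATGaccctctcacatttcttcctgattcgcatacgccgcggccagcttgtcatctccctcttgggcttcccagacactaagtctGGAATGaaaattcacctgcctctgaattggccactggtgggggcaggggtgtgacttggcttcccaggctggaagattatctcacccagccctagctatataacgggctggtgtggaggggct
The match lay 103 to 98 bases upstream of the RefSeq start in Cyr61 and 65 to 60 bases upstream in Amotl2, both on the gene's strand. Ankrd1 had 2 matches on the opposite strand, at 210 to 205 and at 123 to 118 bases upstream of its RefSeq start. Of the 6 genes, 5 had an entry in the promoter table, Ctgf being the exception, and all 5 held CATTCC on either strand, Ajuba 2 times. Of 32851 RefSeq windows of the same length, 12.6% held it. The AP-1 motif TGANTCA was in none of the 5 (6.75% of all windows), and neither was the CArG box of SRF (1.47%). Among 16 genes of a longer list of YAP/TEAD targets with an entry, 3 held CATTCC (Axl, Crim1 and Edn1). A match of 6 letters is a description of the sequence and does not show that a factor binds there.

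Retained UMIs per plate ran from 541729 to 746674 in CD49b- plates and from 150561 to 243340 in CD49b+ plates, with medians of 5904.5 to 8335 UMIs per CD49b- well and 2110.0 to 2680.0 per CD49b+ well. The filter retained 964 of 1150 wells, 528 of them CD49b- and 436 CD49b+. Glial markers (10 genes, among them Sox10, Erbb3 and S100b) summed to between 26079 and 34572 counts per 1000000 retained UMIs (CPM) in CD49b+ plates, and to at most 395 in CD49b- plates. Neuronal markers (11 genes, among them Elavl4, Prph and Snap25) summed to between 7712 and 9045 CPM in CD49b- plates. Of those 11, Uchl1 had 0 UMIs on all 12 plates. More UMIs of the other gate's markers were found in 5 wells, by margins that were mostly small. On homeostasis CD49b- replicate 3 there were 2 such wells, with 2 glial against 1 neuronal marker UMI and with 12 against 7. On irradiated CD49b+ plates there were 3, with 172 neuronal against 142 glial marker UMIs on replicate 1, and with 52 against 51 and 87 against 36 on replicate 2. None of the 5 is given a cell type here. Fibroblast, smooth muscle, pericyte, interstitial cell of Cajal, macrophage, endothelial, lymphocyte, epithelial and mesothelial markers each stayed at or under 594 CPM on every plate, the highest being macrophage markers on homeostasis CD49b+ replicate 3. The plates shared 95 of 96 well barcodes, which name positions on a plate and not cells. Values per plate below are CPM after TMM scaling to effective library sizes. They are shares of a plate's transcripts, so fewer cells with a transcript and fewer transcripts per cell cannot be told apart in them.

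Cyr61 was a gene of the CD49b+ gate. In homeostasis CD49b+ plates it stood at 2169.5, 1215 and 2253 CPM, and in irradiated CD49b+ plates at 1472, 2264 and 2272 CPM. In homeostasis CD49b- plates it stood at 5.26, 0 and 7.19 CPM, and in irradiated CD49b- plates at 4.14, 0 and 7.80 CPM. Every CD49b+ plate lay far above every CD49b- plate, while the homeostasis and irradiated plates of a gate overlapped. Summed over retained wells this was 2061 UMIs in CD49b+ plates against 15 in CD49b- plates. Averaged over treatments, the log2 fold change of CD49b+ over CD49b- was 8.79 (SE 0.349), higher in 6 of 6 mouse pools. Between irradiated and homeostasis CD49b+ plates the log2 fold change of Cyr61 was 0.09 (SE 0.299), a difference smaller than its error. The means were 2003 ± 460 CPM after irradiation and 1879 ± 577 CPM in homeostasis (SD, n = 3 plates each).

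Ctgf was also higher in the CD49b+ gate, by less, and was the only one of the 6 genes whose irradiated and homeostasis CD49b+ plates did not overlap, apart from the sparse counts of Ajuba and the absent Ankrd1, which were not compared. Homeostasis CD49b+ plates had 231, 216 and 193 CPM (39, 39 and 36 UMIs). Irradiated CD49b+ plates had 54.5, 47.3 and 129 CPM (9, 10 and 19 UMIs). All 3 irradiated plates were below all 3 homeostasis plates, and irradiated replicate 3 was the nearest to them. Homeostasis CD49b- plates had 24.6, 28.4 and 33.1 CPM, and irradiated CD49b- plates had 20.7, 27.6 and 15.6 CPM. Those values overlapped between treatments and lay below every CD49b+ plate. The log2 fold change of CD49b+ over CD49b- was 2.32 (SE 0.263), higher in 6 of 6 pools.

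For irradiation within the CD49b+ gate, the mean of Ctgf was 77.0 ± 45.4 CPM after irradiation and 214 ± 19.2 CPM in homeostasis (SD, n = 3 plates each), a 2.77-fold lower level. The fitted log2 fold change was −1.52 (SE 0.348), against a median of 0.09 over all 8555 genes tested. Within the CD49b- gate it was −0.42 (SE 0.377), and the difference between the 2 irradiation effects was −1.10 (SE 0.523). Over all genes, 4.21% had every irradiated CD49b+ plate below every homeostasis CD49b+ plate, and 0.0468% were called lower by edgeR at an adjusted p of 0.05. Of the 4 genes of this set that were tested, 1 (Ctgf) was called lower. Since Ctgf was chosen with these values in view, nothing is read from that call. It was kept in 5 of 19 alternative fits, with a log2 fold change between −2.05 and −1.24 in all 19. Leaving out 1 plate ended the call for 11 of the 12 plates, the exception being irradiated CD49b+ replicate 3 (−2.05 without it). The value was lowest in size without irradiated CD49b+ replicate 2 (−1.24), and it was −1.38 without irradiated CD49b+ replicate 1. The call also ended with each well thinned to the same depth (−1.96), with the run set as a term (−1.75) and without those 5 wells (−1.49).

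Other measures moved with this comparison. Glial markers summed to 31609 to 34572 CPM in homeostasis CD49b+ plates and to 26079 to 27889 CPM in irradiated CD49b+ plates. Neuronal markers summed to 47.3 to 72.8 CPM in homeostasis CD49b+ plates, where Uchl1, Ret and Chat were at 0, and to 1349, 925 and 39.9 CPM in irradiated CD49b+ replicates 1, 2 and 3. The 3 CD49b+ wells with more neuronal than glial marker UMIs held 24748, 12699 and 11627 UMIs, and 1 of the Ctgf UMIs. The part of glial marker level in the Ctgf result was not tested. Only replicate 1 of each treatment shared a run set, a grouping inferred from plate numbers in the labels. Within it Ctgf was 231 CPM in the homeostasis CD49b+ plate and 54.5 CPM in the irradiated one, and Cyr61 was 2169.5 and 1472 CPM. For the other plates run set and treatment cannot be told apart. With the run set as a term the irradiation value of Cyr61 changed sign, from 0.09 to −0.53. Without TMM scaling the median of all genes in this comparison moved from 0.09 to −0.02, and Cyr61 moved with it to −0.02.

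**Figure D1:**
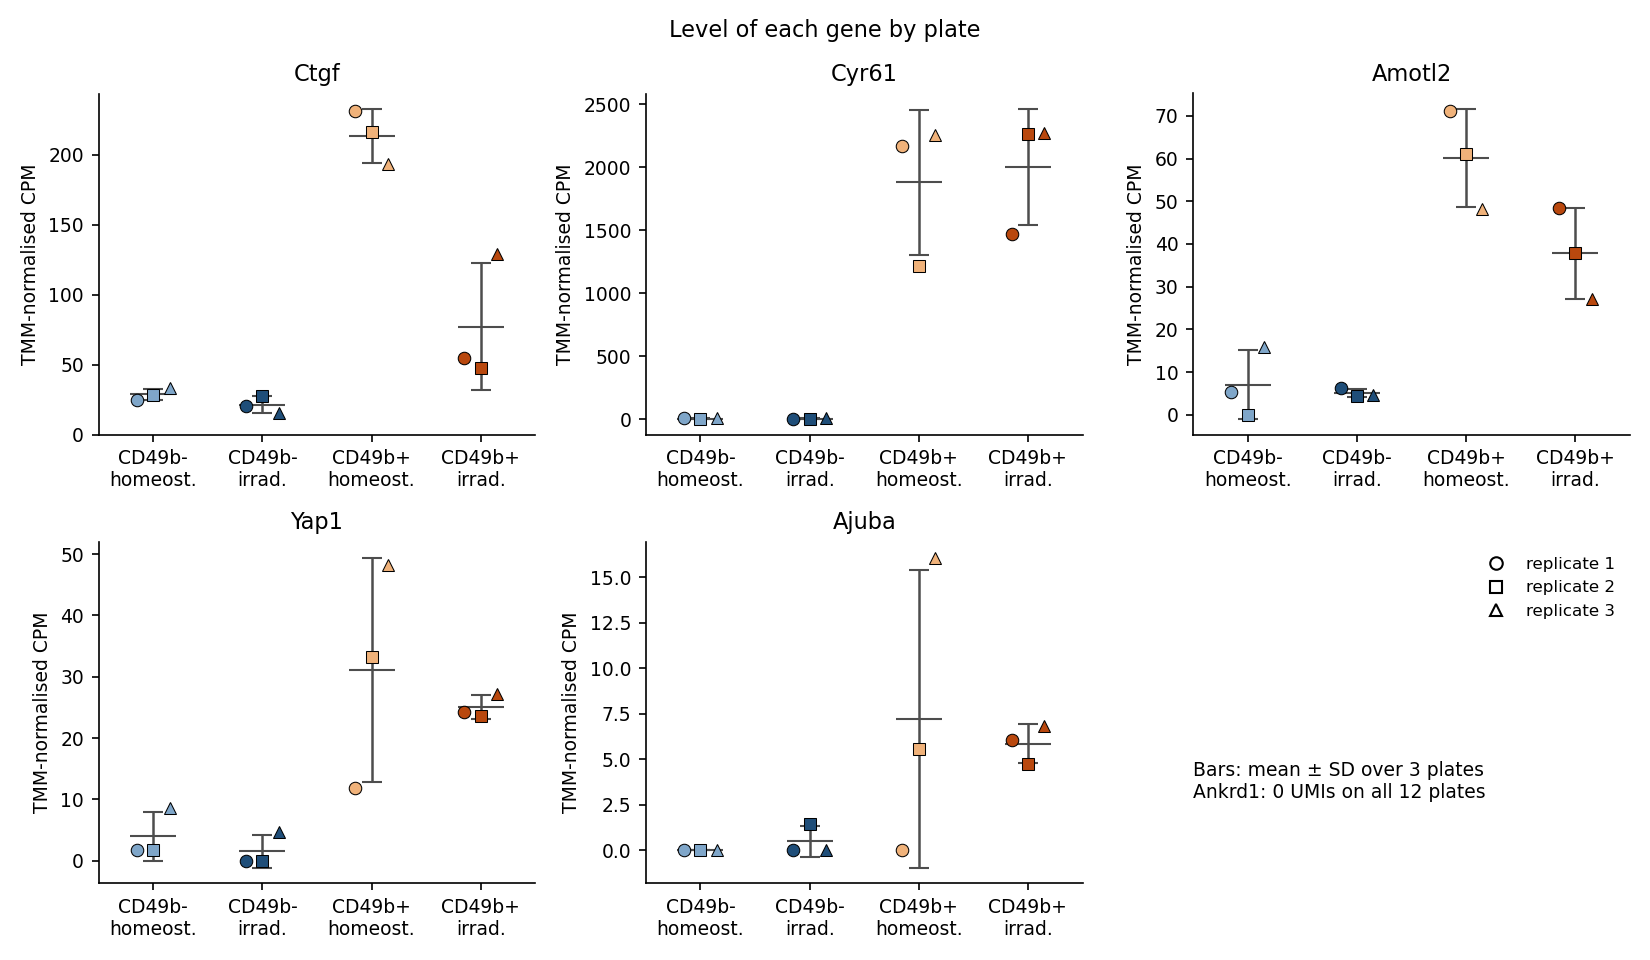
TMM-normalised CPM (y axes, linear, a different range for each gene) of Ctgf, Cyr61, Amotl2, Yap1 and Ajuba on each of the 12 plates, by gate and treatment (x axes), with mean and SD over 3 plates. CD49b+ plates lie above CD49b- plates for the first 4 genes, and for Ctgf the irradiated CD49b+ plates (47.3 to 129 CPM) lie below the homeostasis ones (193 to 231 CPM).

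Counted by well, the same genes differed in how they were spread. Cyr61 had at least 1 UMI in 85.2%, 67.1% and 93.1% of homeostasis CD49b+ wells and in 73.9%, 79.8% and 83.3% of irradiated CD49b+ wells. Its median was 2 to 4 UMIs per CD49b+ well and its highest count was 36 UMIs, in a well of irradiated replicate 3. Most CD49b+ cells thus carried Cyr61, whatever the treatment. Ctgf had a UMI in 32.1%, 44.3% and 34.7% of homeostasis CD49b+ wells and in 11.6%, 11.9% and 21.7% of irradiated CD49b+ wells, without overlap. Its highest count was 5 UMIs, and wells with Ctgf held 1.0 to 1.5 UMIs on average, depending on the plate. In CD49b- wells, which are deeper, Ctgf had a UMI in 18.0% ± 3.60 of homeostasis wells and 11.3% ± 3.02 of irradiated wells, and Cyr61 in 2.18% ± 2.20 and 1.90% ± 1.78 (SD, n = 3 plates each).

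Because CD49b- wells held more UMIs, each retained well was also thinned to 1000 UMIs, which leaves out no retained well. Thinned, Ctgf was found in 21.0%, 21.4% and 20.8% of homeostasis CD49b+ wells, close to each other, and in 2.90%, 1.19% and 11.7% of irradiated CD49b+ wells. The irradiated values rest on 2, 1 and 7 wells. In CD49b- wells the thinned share was 2.65% ± 1.60 in homeostasis and 2.96% ± 2.82 after irradiation. At equal depth the shares of irradiated CD49b+ replicates 1 and 2 were therefore within the range of the CD49b- plates (0% to 5.62%), and that of replicate 3 was above it. Thinned Cyr61 was found in 67.8% ± 13.2 of homeostasis and 61.8% ± 8.99 of irradiated CD49b+ wells, and in 0% and 0.784% ± 1.36 of CD49b- wells. In CPM those plates lay above every CD49b- plate, so no order between them and the CD49b- plates is read from the thinned shares.

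**Figure D2:**
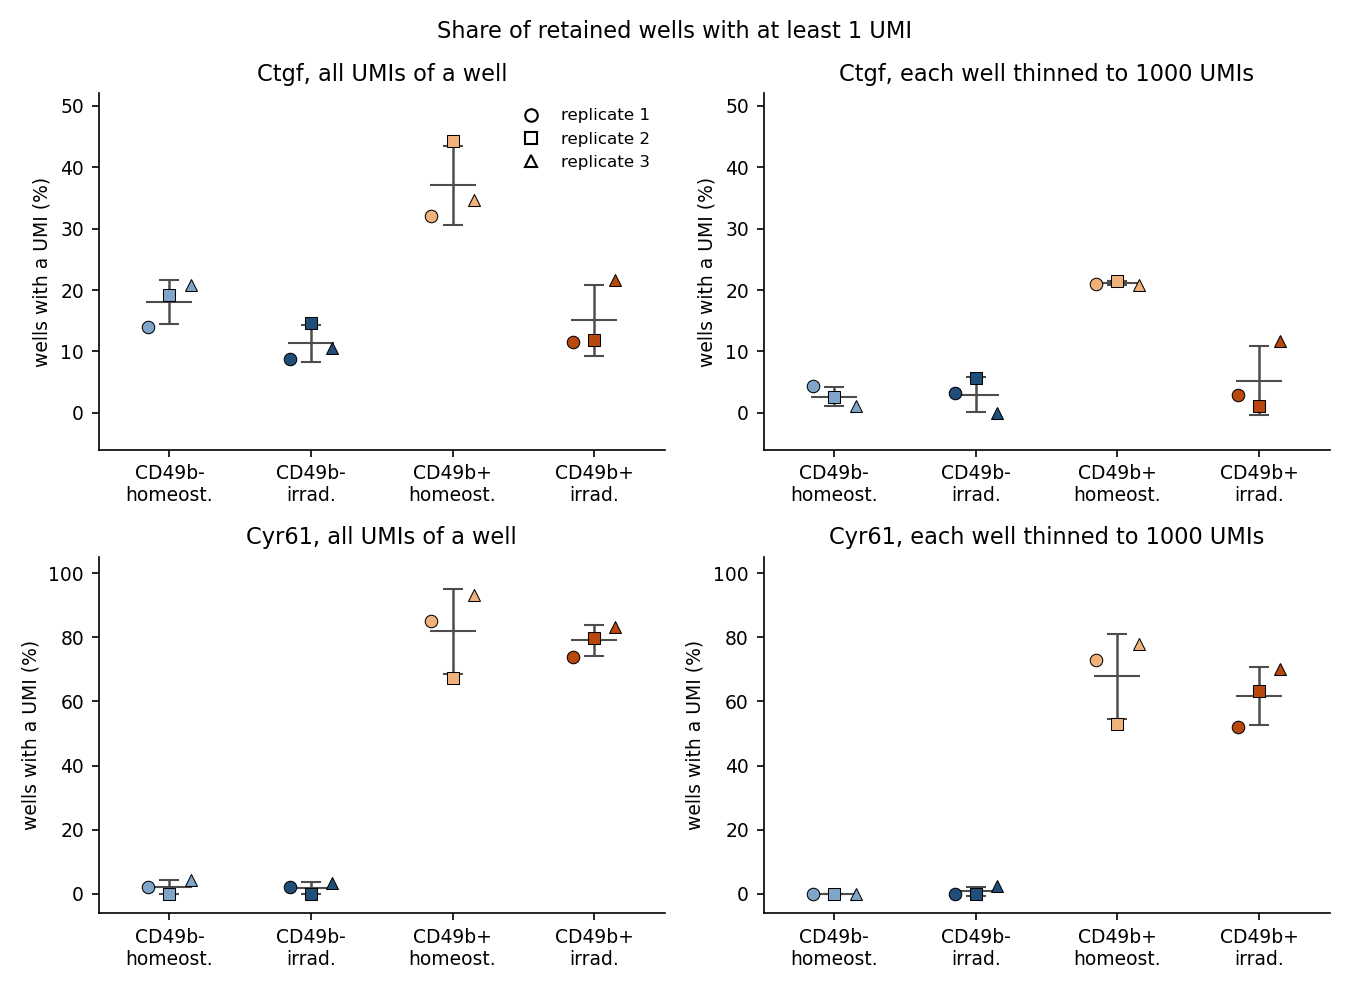
Share of retained wells (y axes, percent) with at least 1 UMI of Ctgf (top) or Cyr61 (bottom) on each plate, with all UMIs (left) or with each well thinned to 1000 UMIs (right), with mean and SD over 3 plates. Thinning brings Ctgf in CD49b- wells from 18.0% to 2.65% in homeostasis, and in homeostasis CD49b+ wells from 37.0% to 21.1%.

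Cyr61 and Ctgf did not keep a constant ratio. The ratio of Cyr61 to Ctgf UMIs within a plate cancels library size and gene length when plates are compared. It was 9.38, 5.62 and 11.7 in homeostasis CD49b+ plates and 27, 47.9 and 17.6 in irradiated CD49b+ plates. All 3 irradiated plates were above all 3 homeostasis plates. Since Cyr61 differed little with irradiation there, this mostly repeats the lower Ctgf counts, with which in view the genes were chosen. It is no separate result, and other pairs of genes were not compared. In CD49b- plates the ratio ran from 0 to 0.5, with 15 Cyr61 and 93 Ctgf UMIs in all, against 2061 and 152 in CD49b+ plates. Of the 436 CD49b+ wells, 90 held both transcripts, 261 held Cyr61 alone, 23 held Ctgf alone and 62 held neither. Cyr61 was thus found in most wells with Ctgf and in most wells without it. Over the wells of a plate, the Pearson correlation of the 2 genes (log of UMIs per 10000 plus 1) ran from −0.23 to 0.10 in the 6 CD49b+ plates.

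Across single CD49b+ wells, the genes most correlated with Cyr61 were immediate early genes. Among 4142 genes detected in at least 10% of the 436 wells, the 5 with the highest correlation with Cyr61 were Zfp36 (r = 0.40), Nr4a1 (0.39), Fos (0.36), Btg2 (0.35) and Atf3 (0.35). All 5 belong to a list of 18 immediate early genes, which tissue dissociation can induce. Of the 15 list genes detected widely enough to be ranked, 10 were in the first 20 positions, and their median r was 0.29 against −0.003 over all ranked genes. Within single plates Cyr61 correlated with the summed list at r = 0.29 to 0.65, positive in 6 of 6 plates. Ctgf correlated with the same sum at −0.28 to −0.04, positive in 0 of 6. The highest r of any gene with Ctgf over wells was 0.19 (Pmepa1), a weak value in sparse counts that is not read as a finding. Wells of a plate share its library and preparation, and these r values are descriptions without a test.

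**Figure D3:**
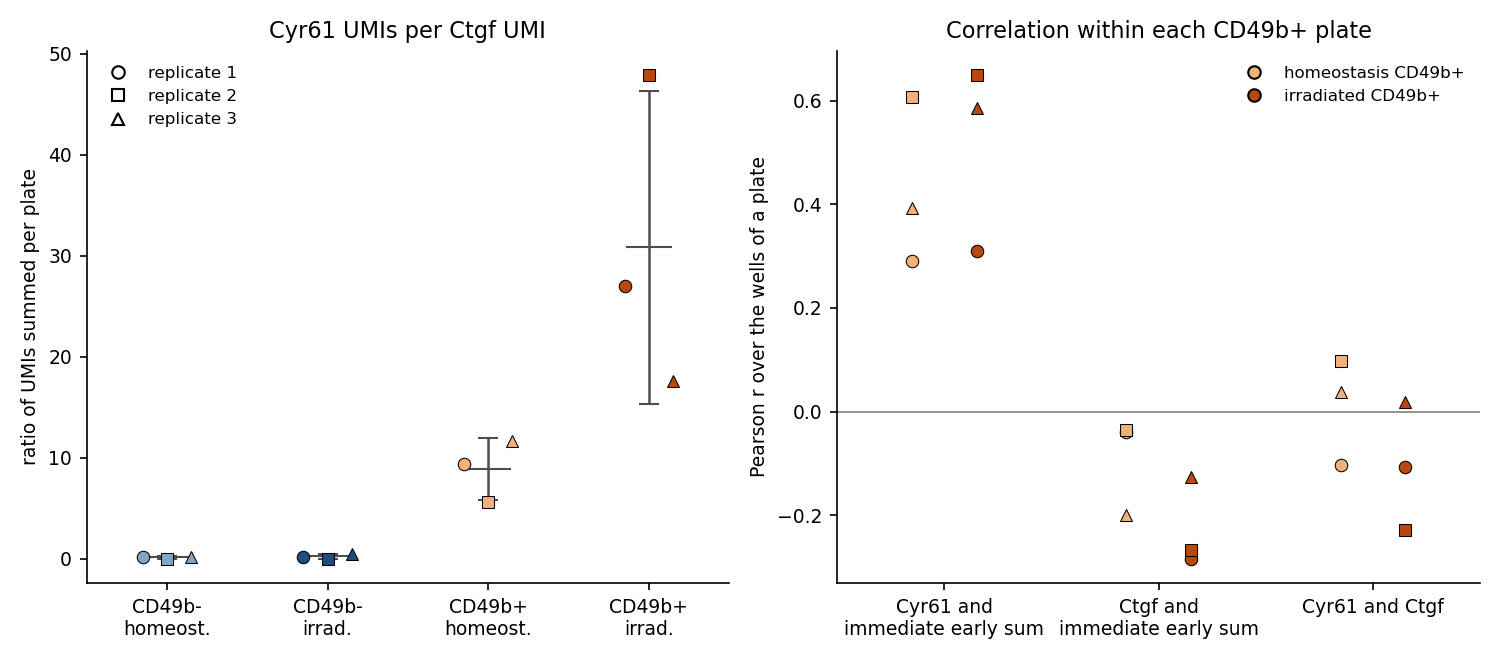
Left, Cyr61 UMIs per Ctgf UMI on each plate (y axis, ratio) by gate and treatment, with mean and SD over 3 plates. Right, Pearson r over the retained wells of each CD49b+ plate (y axis) between the pairs named on the x axis, where all 6 values of Cyr61 with the immediate early sum lie at 0.29 or above and all 6 of Ctgf lie below 0.

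The immediate early list itself was mostly higher in the CD49b+ gate. A gene that passed the low-count filter through CD49b+ plates alone was selected by its level there, which tilts its comparison towards CD49b+. A gene that passed through CD49b- plates alone is tilted the other way. For each list below, the number of its higher genes that also reached the filter's level in at least 3 CD49b- plates is given. Over all genes, 4678 of 8555 reached it in at least 3 plates of both gates, and of these 21.9% were called higher and 31.7% lower. Of its 18 genes 17 were tested, 15 rose and 1 fell between CD49b- and CD49b+ plates by edgeR's test, where 29.6% of all genes rose and 32.4% fell, with a median log2 fold change of 2.40 (−0.13 over all genes). Of the 15 that rose, 13 also reached the filter's level in CD49b- plates, all but Klf2 and Egr2. Among the 13, Nr4a1 (4.87) and Zfp36 (4.38) rose, each higher in 6 of 6 pools, as did Atf3 (2.72). Klf2 (4.92) was higher in 6 of 6 pools too, but nothing is read from its call. Egr2 had 58 UMIs in CD49b+ against 1 in CD49b- plates. Relative to the effective library sizes summed per gate, the ratio was 201 (exact 95% interval 34.7 to 8086). The interval covers counting error only, and the other ratios of sparse genes were formed in the same way. Dusp1, a phosphatase that shuts off MAP kinases, fell by 0.76 and was higher in 0 of 6 pools. Klf4 did not pass the threshold (0.47, SE 0.417). Egr3 had 0 UMIs on all plates. The summed level was 25230 ± 5149 CPM in homeostasis and 24869 ± 2195 CPM in irradiated CD49b+ plates, and 6253 ± 389.7 and 5391 ± 1169 CPM in CD49b- plates (SD, n = 3 plates each). The part of this difference in the gate difference of Cyr61 was not tested.

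Likeness over plates was led by genes that differ between the gates. Over 12 plates the 5 genes most like Cyr61 in log2 CPM were Cthrc1 (r = 0.997), Sfrp1, Mmp14, Fam107a and Cyba, all at 0.993 or above. Most like Ctgf were Katnal2 (0.971), Acot5, Angptl1, Heyl and Gm43519. Over the 6 CD49b+ plates alone Ctgf was followed by Gm8425 (0.983), Katnal2 (0.981), the fibril-associated collagen Col12a1 (0.971), Brdt and Yipf5, and Cyr61 by Yipf1 (0.979), Elavl1, Gm5539, Tshz2 and Gm12225. Katnal2 was on both Ctgf lists, and no gene was on both Cyr61 lists. Most of these genes had few UMIs, for example 26 for Gm8425 and 53 for Yipf1 in the CD49b+ plates, against 623 for Col12a1, and with 6 plates such values are descriptions only.

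The scaffold Amotl2 binds YAP and activates LATS kinases, and is itself a YAP target. It stood at 71.1, 61.0 and 48.3 CPM in homeostasis and 48.5, 37.8 and 27.2 CPM in irradiated CD49b+ plates, which overlapped. In CD49b- plates it stood at 5.26, 0 and 15.8 CPM in homeostasis and 6.22, 4.36 and 4.68 CPM after irradiation. The highest of these, homeostasis replicate 3, had 11 UMIs, of which 7 came from 1 well of 13587 UMIs, the one with 12 glial and 7 neuronal marker UMIs. The same plate had the highest summed fibroblast (402 CPM) and mesothelial (65.6 CPM) markers of all plates, and their part in the Amotl2 value was not tested. The log2 fold change of CD49b+ over CD49b- was 2.91 (SE 0.470), higher in 6 of 6 pools, and that of irradiation in CD49b+ plates was −0.65 (SE 0.590).

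Yap1 was sparse but followed the same order. It stood at 11.9, 33.3 and 48.3 CPM in homeostasis and 24.2, 23.6 and 27.2 CPM in irradiated CD49b+ plates, on 30 UMIs in all. In CD49b- plates it had 1.75, 1.67 and 8.63 CPM in homeostasis and 0, 0 and 4.68 CPM after irradiation, on 11 UMIs. No CD49b- plate reached the lowest CD49b+ plate. The log2 fold change was 3.24 (SE 0.617) between the gates, higher in 6 of 6 pools, and −0.34 (SE 0.740) with irradiation in CD49b+ plates. All 4 tested genes, Ctgf, Cyr61, Amotl2 and Yap1, were called higher in the CD49b+ gate, where 29.6% of all genes were called higher, and had every CD49b+ plate above every CD49b- plate, as 16.0% of all genes had. Cyr61, Amotl2 and Yap1 reached the level of the low-count filter only in CD49b+ plates, Ctgf in both gates. Since the genes were chosen with this contrast known, nothing is read from those counts.

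Ajuba, a LIM protein that inhibits LATS kinases, had 7 UMIs in CD49b+ wells and 1 in CD49b- wells, a ratio of 24.3 with an exact 95% interval of 3.12 to 1095 for counting error only. Ankrd1, a muscle ankyrin repeat protein and strong YAP target in many cultured cells, had 0 UMIs in 964 retained wells and 0 in the 1150 wells of the table. A count of 0 in 964 wells allows a share of wells with a UMI of up to 0.311%. Per group, 3 counts would be 5.6 CPM in homeostasis and 5.73 CPM in irradiated CD49b+ plates, and 1.61 and 1.66 CPM in CD49b- plates. A level of Ankrd1 under these could have gone undetected at this depth.

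Ctgf shares its locus with Gm15270, a non-coding gene model on the opposite strand whose exons overlap those of Ctgf. Whether counting used strand is not given in the sources used here, and reads of the 2 genes may not be told apart. Gm15270 had 247 retained UMIs, nearly as many as the 245 of Ctgf, with another distribution. It stood at 66.7, 65.2 and 66.1 CPM in homeostasis CD49b- plates and 35.6, 0 and 42.9 CPM in homeostasis CD49b+ plates. With irradiation it stood at 49.7, 48.0 and 60.8 CPM in CD49b- and 18.2, 47.3 and 6.80 CPM in CD49b+ plates. Gm15270 was lower in the CD49b+ gate (log2 fold change −1.16, SE 0.373, edgeR adjusted p = 0.00943) and differed little with irradiation there (0.01, SE 0.672, adjusted p = 1.0). Both genes were found in 44 wells, out of 190 with Ctgf and 192 with Gm15270. Gm20416, opposite Yap1, had 0 UMIs.

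Of 9 partners of YAP, 3 were tested and 6 were too sparse. All 3 were called higher in CD49b+ plates, as 29.6% of all genes were, but 0 of the 3 reached the filter's level in CD49b- plates, so nothing is read from that count and their values are given without a test. Wwtr1, the TAZ gene, stood at 35.6, 88.8 and 59.0 CPM in homeostasis and 54.5, 33.1 and 116 CPM in irradiated CD49b+ plates, and at most at 7.02 CPM in any CD49b- plate (log2 fold change 4.07, SE 0.466, higher in 6 of 6 pools). For Vgll4, which competes with YAP for TEAD factors, the log2 fold change was 2.22 (SE 0.367, higher in 6 of 6 pools). The TEAD factor Tead2 had 39 UMIs against 2, a ratio of 67.7 (exact 95% interval 17.5 to 579). Tead1 had 47 UMIs over all groups and was not tested, nor were Tead3, Tead4 and 3 Vgll genes.

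Of 27 Hippo genes, which act upstream of YAP, 17 were tested, 6 rose and 3 fell between CD49b- and CD49b+ plates, with a median of 0.02 (−0.13 over all genes). Over all genes 29.6% rose and 32.4% fell, and 0 of the 6 reached the filter's level in CD49b- plates, so the counts do not set the Hippo genes apart. Those that rose most were Frmd6 (3.54), Limd1 (2.86), the LATS activator Mob1a (2.74), the angiomotin Amotl1 (2.56) and the atypical cadherin Fat1 (1.48). Lats2 had a log2 fold change of 1.38 (higher in 4 of 6 pools), and of 1.2 with the mouse pool as a block, when its call was lost. All 6 passed the filter through CD49b+ plates, so their values are descriptions and nothing is read from their calls. Wwc2 (−1.83) and the kinase Taok3 (−0.91) were among those that fell and were higher in 0 of 6 pools. Of the 3 that fell, 1 (Taok3) also reached the filter's level in at least 3 CD49b+ plates. Nothing is read from the call of Wwc2. Taok1 (0.02) and Map4k4 (0.48), the best expressed of the others, did not pass the threshold.

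In a longer list of 26 YAP/TEAD target genes 11 were tested, and 15 were too sparse, with 0 to 94 UMIs. Of the 11, 6 rose and 4 fell (29.6% and 32.4% of all genes), with a median log2 fold change of 1.35. Of the 6 that rose, 2 (Tgfb2 and Gadd45a) also reached the filter's level in CD49b- plates. The receptor tyrosine kinase Axl was at 132 ± 30.8 CPM in homeostasis and 117 ± 18.3 CPM in irradiated CD49b+ plates and at most at 4.31 CPM in CD49b- plates (5 UMIs in all), and was higher in 6 of 6 pools. Tgfb2 rose by 4.08 (SE 0.207, edgeR adjusted p = 4.50e-14) and Gadd45a by 1.35, both higher in 6 of 6 pools. The membrane repair protein Myof (4.56) was higher in 6 of 6 pools too. Tissue factor F3 had 78 UMIs against 3, a ratio of 90.2 (exact 95% interval 29.8 to 447), and Dock5 had 32 against 3, a ratio of 37.0 (11.6 to 189). Rbms3 (−2.45), the Arf regulator Asap1 (−1.24) and Tns1 (−0.50) fell, and all of them also reached the filter's level in CD49b+ plates. The tensin Tns3 had a log2 fold change of −4.26. It reached the filter's level in only 1 CD49b+ plate, so nothing is read from its call. Arhgef17 (−0.02) did not pass the threshold. Tns1 did not pass with the pool as a block (adjusted p = 0.0507) or without TMM scaling (adjusted p = 0.0659). With thinned wells 5 of these genes could be tested and 4 were called, Axl and Tgfb2 higher and Rbms3 and Tns3 lower. The filter was applied anew to the thinned sums. Whether these genes reached its level in both gates at that depth was not examined, so nothing is read from those 4 calls. Thbs1, Ccnd1 and Edn1, other widely used targets, had 10, 42 and 8 UMIs in all.

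The other CCN genes were nearly absent. Nov had 11 UMIs, all in CD49b- wells, Wisp2 had 4, Wisp1 had 1 and Wisp3 had 0, and none could be tested. Receptors that bind CCN proteins were present on both sides of the gate. Of 10 genes 6 were tested, 4 rose in CD49b+ plates and 0 fell by edgeR's test (29.6% and 32.4% of all genes), with a median of 1.58. None of those 4 reached the filter's level in 3 CD49b- plates, so nothing is read from the count. Sdc4, the heparan sulfate proteoglycan syndecan 4, stood at 2051, 1620.1 and 1641 CPM in homeostasis and 1206, 1262 and 1388 CPM in irradiated CD49b+ plates, and at most at 18.7 CPM in CD49b- plates (17 UMIs in all). It was higher in 6 of 6 pools. The integrin chain Itgav (4.83) and the endocytic receptors Lrp1 (1.83) and Lrp6 (1.34) were the others. Itgb1 (0.03) and Igf2r (0.04) did not pass the threshold.

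Of 14 TGF-beta genes, whose pathway also drives Ctgf in many cells, 8 were tested, 4 rose and 1 fell (29.6% and 32.4% of all genes), with a median of 0.96. Of the 4, 2 (Tgfb1 and Tgfb2) also reached the filter's level in CD49b- plates. Tgfb1 (1.42) rose beside Tgfb2. The coreceptor Tgfbr3 (1.61) passed the filter through CD49b+ plates, so nothing is read from its call. Tgif1 had 33 UMIs against 2, a ratio of 57.3 (exact 95% interval 14.6 to 493). Smad2 fell by 0.85 and did not pass with the pool as a block (adjusted p = 0.0521) or without TMM scaling (adjusted p = 0.0505). The SMAD repressors Skil (0.15) and Ski (0.51) did not pass the threshold. Of 18 genes of SRF, its MRTF cofactors and their actin targets, 11 were tested, 6 rose and 2 fell (29.6% and 32.4% of all genes), with a median of 0.73. Of the 6, 1 (Actb, 0.73) also reached the filter's level in CD49b- plates. The others, Myl9 (3.85), Flna (3.00), Acta2 (2.64), Actg1 (1.98) and Srf (1.77), passed the filter through CD49b+ plates. Their values are descriptions and nothing is read from their calls. Tpm1 (−1.08) and Tagln2 (−0.67) fell, and Tpm4 (0.26) and Zyx (−0.49) did not pass the threshold. Acta2, Tagln and Cnn1 are also smooth muscle markers. The summed level of those markers was 57.9 to 103 CPM in homeostasis and 13.3 to 97.5 CPM in irradiated CD49b+ plates, and 3.05 to 129 CPM in CD49b- plates, and its part in the Acta2 result was not tested.

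**Figure D4:**
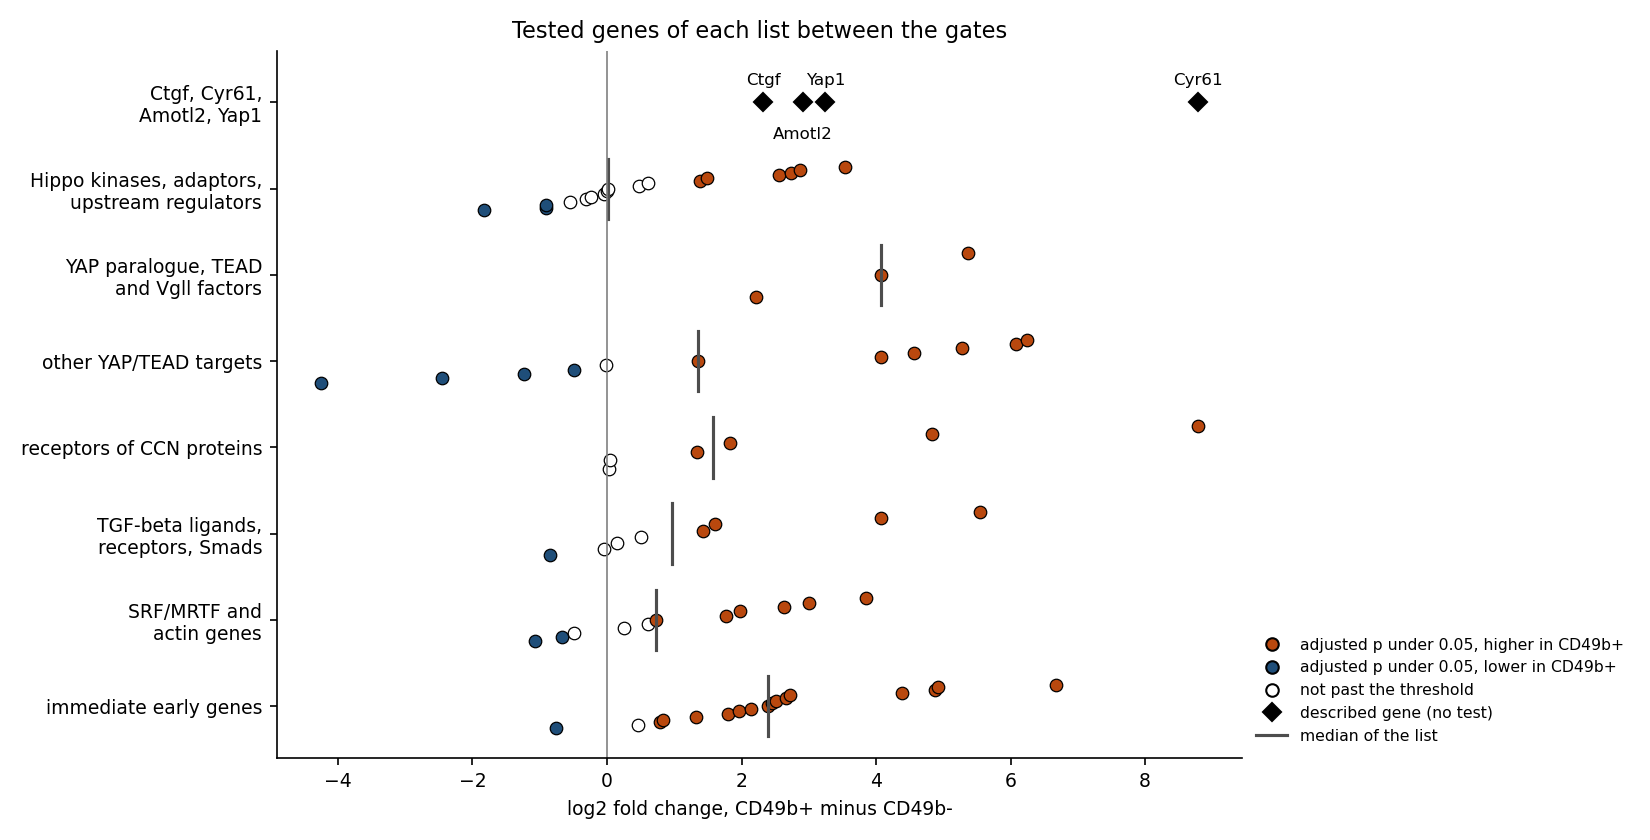
Log2 fold change of CD49b+ over CD49b- plates (x axis) for each tested gene of 7 lists (rows), coloured by the edgeR call, with each list's median, and the 4 described genes without a test above. Fitted values of genes with 1 to 3 UMIs in CD49b- plates, such as Egr2 and Tead2, depend on the prior count.

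With irradiation, no gene of these lists passed edgeR's test. The lists held 72 distinct genes that were tested, without the 6 described above, and 54 of them were called between the gates, where 62.1% of all genes were. In CD49b+ plates edgeR called 0 of the 72 with irradiation (0.713% of all genes), with 6 at an unadjusted p under 0.05 (10.6% of all genes), and DESeq2 called 1, the immediate early gene Klf6. In CD49b- plates edgeR called 0 (0.0468% of all genes), with 6 at an unadjusted p under 0.05 (4.14%), and DESeq2 called 0. Klf6 was at 377 ± 73.0 CPM in homeostasis and 692 ± 51.7 CPM in irradiated CD49b+ plates (SD, n = 3 plates each). Every irradiated CD49b+ plate was above every homeostasis one for Klf6, as for 6.72% of all genes, while in CD49b- plates every irradiated plate was below, as for 6.34%. Median log2 fold changes in CD49b+ plates were −0.30 for the Hippo genes, −0.76 for the YAP partners, −0.15 for the targets, 0.47 for the CCN receptors, −0.44 for the TGF-beta genes, 0.15 for the SRF genes and 0.18 for the immediate early genes, beside 0.09 over all genes. Tgfb2 was at 889, 716 and 767 CPM in homeostasis and 454, 496 and 483 CPM in irradiated CD49b+ plates. Every irradiated plate was below every homeostasis plate, as for 4.21% of all genes. The difference in Tgfb2 did not pass edgeR's test over all genes (−0.72, SE 0.248, adjusted p = 0.234, lower in 3 of 3 plates). Tead2 was at 47.4, 49.9 and 48.3 CPM in homeostasis and at 18.2, 14.2 and 47.6 CPM after irradiation, where replicate 3 lay within the range of the homeostasis plates. The same irradiated replicate 3 had the highest Ctgf and the lowest Amotl2 of its group, and nothing is read from 1 plate. Sdc4 was likewise lower on every irradiated CD49b+ plate, as 4.21% of all genes were, and did not pass edgeR's test (−0.46, SE 0.288, adjusted p = 0.602). Tgfb2, Tead2, Sdc4 and Klf6 were singled out here after their values were seen.

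**Figure D5:**
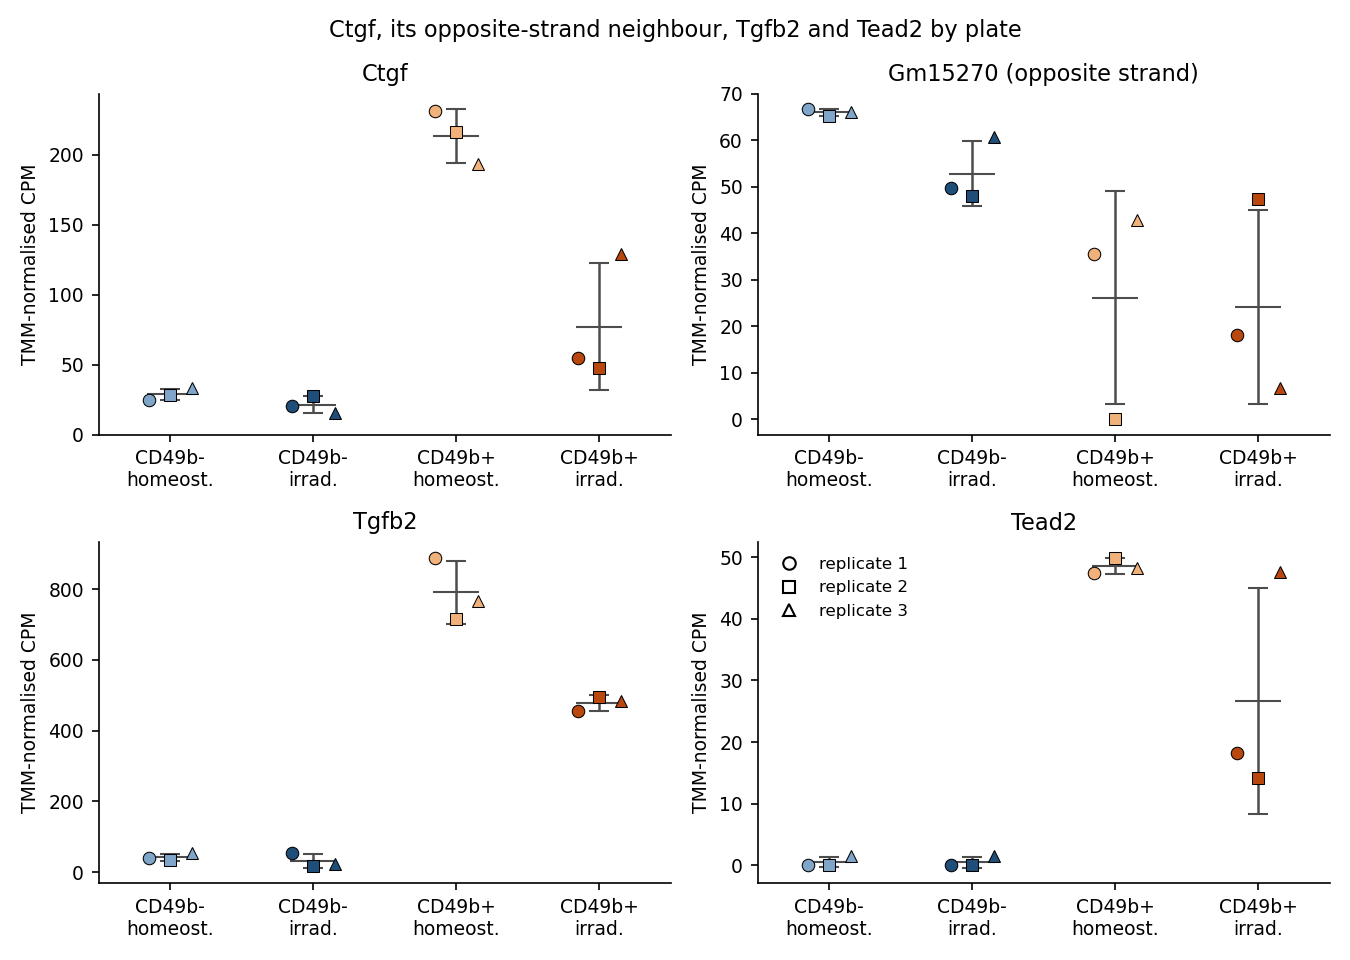
TMM-normalised CPM (y axes, linear) of Ctgf, of Gm15270 on the opposite strand of its locus, of Tgfb2 and of Tead2 on each plate by gate and treatment, with mean and SD over 3 plates. Ctgf and Tgfb2 have every irradiated CD49b+ plate below every homeostasis CD49b+ plate, as 4.21% of all genes have, while Gm15270 is highest in CD49b- plates.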

How the data were processed

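Wells of 12 plates were analysed from 1 table of raw UMI counts per gene and well, deposited by the authors without normalisation. The submitters' processing notes name GRCm38 and GRCh38 as builds, featureCounts 1.5.3 and STAR 2.5.3a, and per the labels libraries were made with Nextera XT after in-well reverse transcription. Roles of tools and builds, the strand setting and the collapsing of UMIs are not given in the sources used here.

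Wells with at least 1000 UMIs, at least 500 genes and under 20% mitochondrial UMIs were retained (964 of 1150 wells, 5119450 of 5159668 UMIs) and summed per plate. Sums were tested with edgeR 4.0.16 (R 4.3.3): TMM, filterByExpr, a model of 4 group means, its quasi-likelihood F test, and p-values of 8555 genes adjusted by Benjamini-Hochberg (threshold 0.05). The script was tested on simulated data. Plates were the replicates, each holding cells of a pool of 2 mice, so p-values measure the spread between plates within groups. The model had no pool term, so the test between the gates left out the pairing of plates from the same pool. Gene positions came from GENCODE vM21 (GRCm38). Promoters came from RefSeq, where 5 of 6 genes matched. Tables and figures used Python 3.11.15, numpy 2.4.6, pandas 2.3.3, scipy 1.17.1 and matplotlib 3.10.9.

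The 6 genes and all lists were chosen with earlier results of these data known. Named were the 6 genes, up to 5 called genes per list and direction with the largest fold change, and the 2 best expressed uncalled ones. The CD49b- and CD49b+ plates of a replicate came from the same mice, per the mouse identifiers in the labels. Their residuals correlated at 0.0971, 0.0431 and 0.0587 in homeostasis and 0.184, 0.113 and -0.0336 after irradiation. Alternatives were DESeq2 1.42.0, no TMM, no filter on low counts, the mouse pool as a block, the run set as a term, all wells, thinned wells, leaving out 5 wells with more UMIs of the other gate's markers, and leaving out each plate.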

Additional observations from a re-analysis of the deposited data

Results flagged for a closer look

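Wells left out for low depth held some of the described transcripts. In 65 homeostasis CD49b+ wells with 14013 UMIs in all there were 6 Ctgf and 15 Cyr61 UMIs, and in 74 irradiated CD49b+ wells with 17935 UMIs there were 21 Cyr61 UMIs and 1 Ctgf UMI. The 26 homeostasis and 21 irradiated CD49b- wells left out held 0 UMIs of either gene. The sums per plate do not use these wells, and with all wells of the table the log2 fold change of Ctgf with irradiation in CD49b+ plates was -1.58.

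For Klf6, an immediate early zinc finger factor, every irradiated CD49b+ plate lay above every homeostasis one, as for 6.72% of all genes. In CD49b- every irradiated plate lay below, as for 6.34%. With irradiation edgeR called it in neither gate (adjusted p = 0.0561 in CD49b+ plates), and DESeq2 called it in CD49b+ plates only. Klf6 was singled out after its values were seen. It was 377 ± 73.0 CPM in homeostasis and 692 ± 51.7 CPM in irradiated CD49b+ plates, and 339 ± 19.97 and 245 ± 21.5 CPM in CD49b- plates (SD, n = 3 plates each). The difference between the irradiation effects was 1.34 on the log2 scale (edgeR adjusted p = 0.0885, past the threshold by DESeq2).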

How the results depend on the processing

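Across 1000 values recomputed under the alternatives no called value changed direction. Of 280 member log2 fold changes, 263 moved by less than the spread between plates. The gate calls of Ctgf, Cyr61, Amotl2 and Yap1 were kept in all alternatives that could test them (13 for Yap1). These genes were chosen with this contrast known, and Cyr61, Amotl2 and Yap1 reached the filter's level only in CD49b+ plates. Nothing is therefore read from the keeping of those calls. Genes called between the gates numbered 5311, and 5105 with the mouse pool as a block, but 1529 with wells thinned to 1000 UMIs, when 4 of the YAP target list were called in place of 10. Genes called with irradiation in CD49b+ plates numbered 61. They numbered 99 with DESeq2, 146 without the filter on low counts, 30 with the run set as a term, 18 with thinned wells and 26 without the 5 wells with more UMIs of the other gate's markers, and 4 to 156 when 1 plate was left out (4 without homeostasis replicate 3, 156 without irradiated replicate 3, both CD49b+). In CD49b- plates 4 genes were called, 45 without the filter, 0 with thinned wells and 1 to 8 without 1 plate (1 without irradiated CD49b- replicate 1, 8 without irradiated CD49b+ replicate 1). For the difference between the irradiation effects 1 gene was called, 23 with DESeq2, 67 without the filter, 4 with the run set as a term, 0 with the pool as a block and 0 to 87 without 1 plate (87 without irradiated CD49b+ replicate 3). With the run set as a term the irradiation value of Cyr61 in CD49b+ plates was -0.53. In CD49b- plates, where neither gene was called with irradiation, thinning gave 0.33 for Ctgf and 2.97 for Cyr61, and leaving out 1 plate moved Cyr61 between -1.15 and 0.53. The pool block changed no call of a list gene between the gates other than those of Lats2, Tns1 and Smad2. The cause of these shifts was not tested. The call of Ctgf with irradiation in CD49b+ plates rests on 152 UMIs over 6 plates, 3 pools a treatment and partly confounded run sets. Ajuba and Ankrd1 were too sparse for a comparison.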
